A study of Homo sapiens with 6 samples.

Results

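Levels of 10 transcripts that govern how a cell stores, moves and withstands iron were compared between irradiated and untreated cells of MDA-MB-231, a breast cancer line of human origin that lacks hormone receptors and HER2 amplification. The genes were chosen by symbol: the ferritin chains FTH1 and FTL, the importers TFRC and SLC39A14, the exporter SLC40A1, the iron sensor IREB2, the ferritin receptor NCOA4, and the ferroptosis genes GPX4, AIFM2 and ACSL4. Each symbol had 1 row among the 61280 rows of the deposited table, and all 10 were among the 14621 rows that were tested. The 3 irradiated libraries came from cells harvested 24 h after 20 Gy of X-rays, and the 3 control libraries from cells without treatment. All cells were grown in DMEM with fetal bovine serum and antibiotics. How long the controls were cultured is not in the labels, so culture time and irradiation cannot be told apart. Nothing says that the replicates were separate cultures, and the p-values then reflect only how far these samples lie apart, a spread that may be technical. Levels are in TPM, a share of each library corrected for transcript length and scaled to the same total. TPM does not show the amount of RNA per cell, and fewer cells with a transcript cannot be told apart from less of it in each cell.

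Ferritin is a hollow shell of heavy and light chains in which iron is kept in a harmless form. When iron is short, the iron regulatory proteins bind hairpins in messenger RNAs, called iron-responsive elements. Binding near the start of the ferritin messages blocks their translation, and binding near the end of the transferrin receptor message protects it from decay, so that import goes up and storage goes down. Ferroptosis is a form of cell death in which iron drives the peroxidation of membrane lipids. GPX4 and AIFM2 restrain it along separate routes, and ACSL4 supplies the unsaturated lipids that are oxidised.

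The hairpins that tie the iron genes to one another are shown because they are what the sensor encoded by IREB2 reads. They were found in GENCODE 29 transcripts as a bulged C, 5 bases, the loop CAGTGN with a last base other than G, and 5 bases that pair with the first 5, on the message strand only. The search found 7 matches in 4 of the 10 genes, in the 5′ UTR of FTH1, FTL and SLC40A1 and in the 3′ UTR of TFRC, which had 4. Elements with another loop are missed, so 4 is a count of matches and not of all elements in TFRC. The letters A to D only order these matches along the message and are not established site names. No such match was found in the other 6 genes, which says only that these letters are not in their annotated UTRs. Of 19689 protein-coding genes, 22 (0.112%) had a match in a 5′ UTR and 101 (0.513%) in a 3′ UTR. Each is printed 5′ to 3′ as 29 bases of the message with T for U, with the loop in capitals, followed by its hg38 position in the same order below.
FTH1: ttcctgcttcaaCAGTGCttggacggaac
FTL: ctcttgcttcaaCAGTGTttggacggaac
SLC40A1: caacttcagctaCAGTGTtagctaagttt
TFRC site A: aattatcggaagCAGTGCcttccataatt
TFRC site B: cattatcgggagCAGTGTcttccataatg
TFRC site C: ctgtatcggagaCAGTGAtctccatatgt
TFRC site D: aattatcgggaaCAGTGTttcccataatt
These lie at chr11:61967574-61967602 on the minus strand, chr19:48965335-48965363 on the plus strand, chr2:189580661-189580689 on the minus strand, and, all on the minus strand, chr3:196050979-196051007, chr3:196050575-196050603, chr3:196050510-196050538 and chr3:196050463-196050491. The match in a sequence is a description and does not show that a protein was bound.

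Across all tested genes, 1550 passed a Benjamini-Hochberg adjusted p of 0.05 in a limma fit to log2(TPM + 1) and are named called here, 955 higher and 595 lower after irradiation. That split was 778 and 852 after median-ratio scaling, and 844 and 1477 once trends on GC content and length had been removed. With control replicate 1, 2 or 3 left out the calls numbered 356, 306 and 774, and with irradiated replicate 1 or 3 left out 688 and 488. Of 6 markers of the line, none had a mean under 1 TPM, and VIM, the intermediate filament of mesenchymal cells, averaged 1778 TPM. VIM was called lower after irradiation, with means of 1967 and 1589 TPM (adjusted p = 0.00479, limma). So was AXL, another of these markers, with 187 and 146 TPM (adjusted p = 0.00921), and the rest were not called. Of 4 genes low or absent in the line, PGR was at 0 in every library, ESR1 and CDH1 averaged 0.152 and 0.0917 TPM, and ERBB2 averaged 24.3 TPM. Summed markers of other cell types (leukocyte, endothelial, hepatocyte, fibroblast and muscle genes, 8 in all, 5 with a mean under 1 TPM) came to 8.17 to 12.9 TPM in controls and 10.9 to 54.7 TPM in irradiated libraries. The leukocyte gene PTPRC accounted for the top of that range, with 40.4 TPM in irradiated replicate 1 and at most 0.45 TPM in each other library; its part in the results below was not tested.

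None of the 10 iron and ferroptosis genes was called (limma, adjusted p from 0.132 to 0.840), where 10.6% of all tested genes were, 6.53% higher and 4.07% lower. At an unadjusted p under 0.05, 3 of the 10 passed, SLC40A1, FTL and TFRC, against 28% of all tested genes. In the same 3 genes the ranges of both groups did not overlap, 2 higher and 1 lower. Of all tested genes 34.9% had such ranges, 20.4% higher and 14.5% lower. The median log2 difference of the 10 was -0.06, and that of all tested genes was 0.03. A missed threshold does not show that the levels were equal, so the 95% interval of each difference is given with it.

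**Figure D1:**
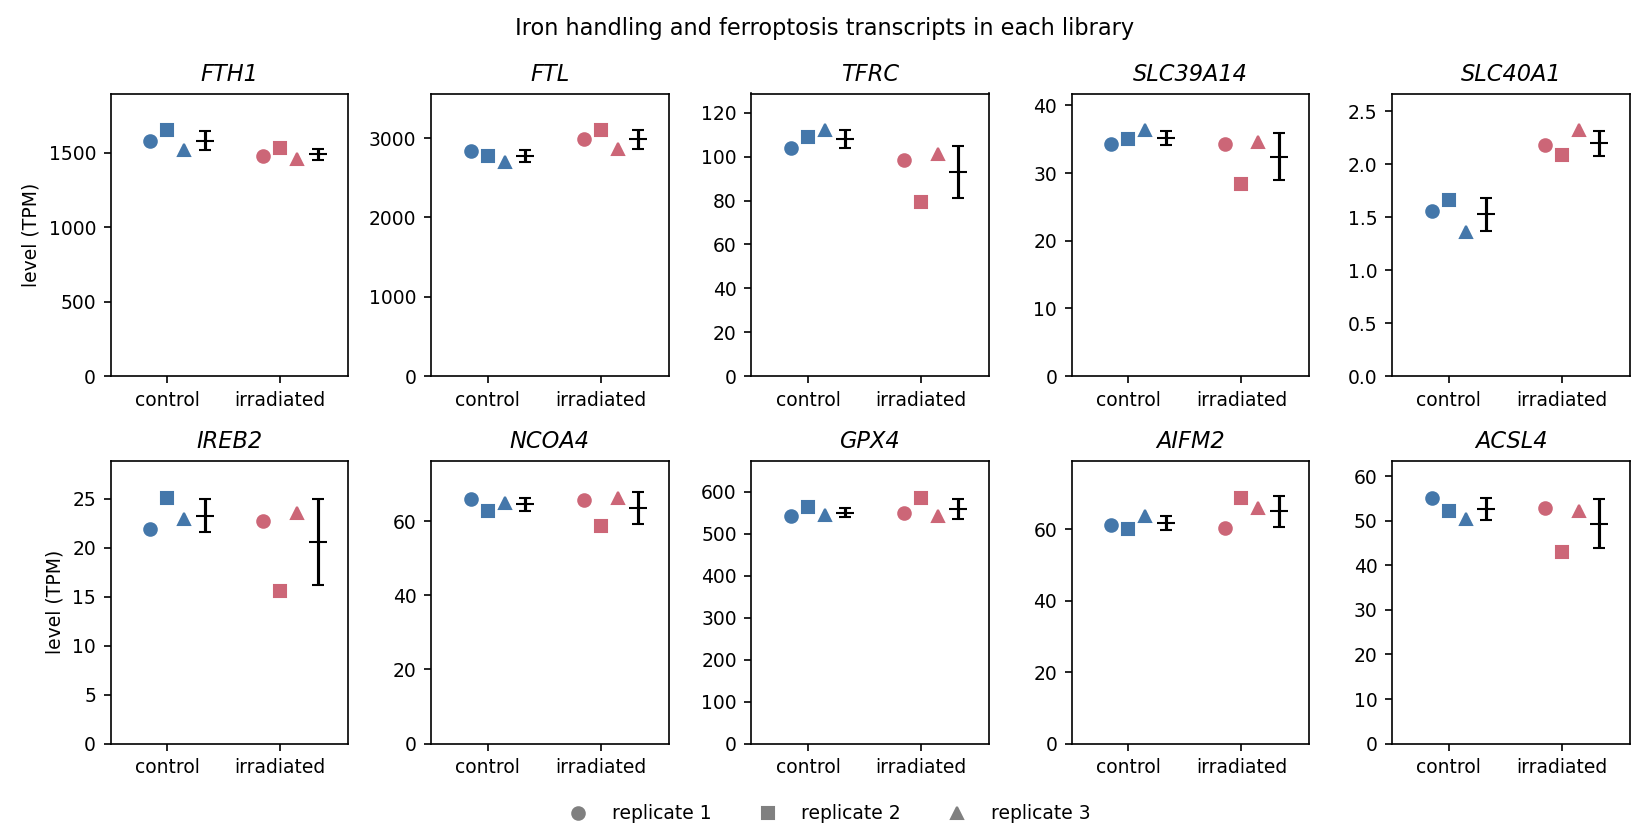
Level in TPM (vertical axes, each from 0) of the 10 transcripts in every library, with marker shape for the replicate and a black bar for mean and SD (n = 3). Irradiated replicate 2 is the lowest of the 6 libraries for 5 genes and the highest for 3.

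The transcripts of ferritin were the most abundant of the set. FTL, the light chain that helps iron crystallise in the shell (ENSG00000087086; chr19:48965301-48966878), stood at 2843.47, 2772.85 and 2695.65 TPM in the controls and 2992.37, 3097.84 and 2864.83 TPM after irradiation. Every irradiated value was above every control value, by as little as 2864.83 against 2843.47 TPM. The means were 2771 ± 73.9 and 2985 ± 117 TPM (SD, n = 3 each), a log2 difference of 0.11 ± 0.04 SE with a 95% interval of 0.01 to 0.21 and an adjusted p of 0.150 (limma). FTL ranked 52 of 14621 tested rows by mean TPM.

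FTH1, the heavy chain that oxidises iron for storage (ENSG00000167996; chr11:61959718-61967660), had 1575.84, 1648.42 and 1515.97 TPM in the controls and 1475.97, 1528.63 and 1455.45 TPM after irradiation. The groups overlapped through 1 irradiated library, replicate 2, which lay above control replicate 3. The log2 difference was -0.09 ± 0.04 SE, with a 95% interval of -0.19 to 0.01 and an adjusted p of 0.230 (limma). Both chains together held 0.421% to 0.442% of the TPM in controls and 0.432% to 0.463% after irradiation, ranges that overlap. Processed copies of the ferritin genes can share their reads. The 25 rows of FTH1 pseudogenes summed to at most 0.270% of FTH1 in any library, and the 16 rows of FTL pseudogenes to at most 0.0363% of FTL. FTH1P3, FTH1P1 and FTH1P23 had the highest means of these rows over all 6 libraries, 0.65, 0.36 and 0.327 TPM.

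The balance between the chains differed between the groups in every library. FTL was 1.80, 1.68 and 1.78 times FTH1 in controls and 2.03, 2.03 and 1.97 times after irradiation. The log2 ratio of FTH1 to FTL was -0.81 ± 0.05 in controls and -1.01 ± 0.02 after irradiation (SD, n = 3 each). The difference of -0.19 had p = 0.10 in a two-sided exact permutation test, the smallest that 3 against 3 libraries can give, and 0.30 when adjusted over the 3 ratios compared. No library decided the difference: with each left out in turn it ranged from -0.21 to -0.16, and adding the pseudogene rows gave -0.19. With libraries matched by replicate number, an exact test that reversed signs of the matched differences gave p = 0.25, the smallest it can give. The ratio was not recomputed after the GC and length correction, in which FTH1 differed by -0.18 and FTL by -0.03. A ratio within a library does not depend on its total, but it shows only that the chains differed unequally, not which of them did.

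**Figure D2:**
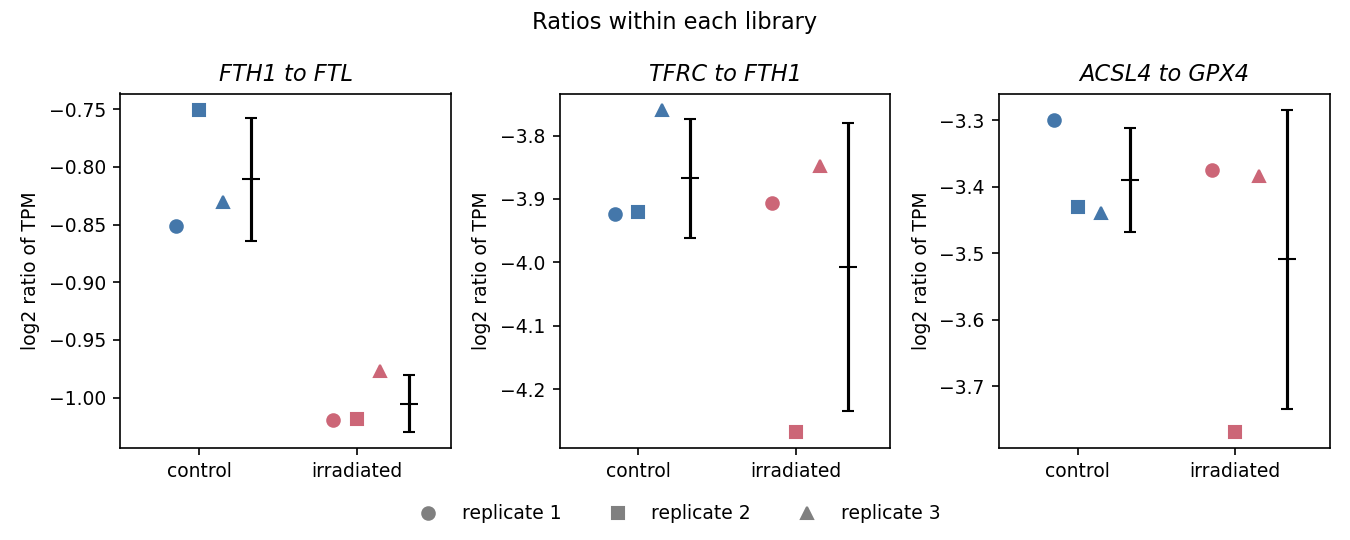
Log2 ratio of TPM values (vertical axes) for FTH1 to FTL, TFRC to FTH1 and ACSL4 to GPX4 in each library, with marker shape for the replicate and a black bar for mean and SD (n = 3). The irradiated libraries all lie below the controls for FTH1 to FTL, while irradiated replicate 2 sits alone in the other panels.

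Of the importers, TFRC encodes the receptor that takes up transferrin-bound iron (ENSG00000072274; chr3:196027183-196082189). It measured 103.88, 108.85 and 111.98 TPM in controls and 98.49, 79.38 and 101.08 TPM after irradiation. All irradiated values were below all control values, and replicate 2 was far below the other two. The log2 difference of -0.22 ± 0.09 SE had a 95% interval of -0.44 to -0.01 and an adjusted p of 0.162 (limma). Without irradiated replicate 2 it was -0.12 (adjusted p = 0.162). SLC39A14, the ZIP14 carrier of iron that is not bound to transferrin (ENSG00000104635; chr8:22367249-22434129), had 34.24, 35.04 and 36.3 TPM in controls and 34.22, 28.42 and 34.54 TPM after irradiation. Replicates 1 and 3 of the irradiated group lay at the level of the controls. Its log2 difference was -0.12 ± 0.08 SE (95% interval -0.32 to 0.07, adjusted p = 0.392, limma), and -0.03 without irradiated replicate 2.

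The log2 ratio of TFRC to FTH1, import receptor against storage shell, was -3.87 ± 0.09 in controls and -4.01 ± 0.23 after irradiation (SD, n = 3 each). The difference of -0.14 had p = 0.60 in the exact permutation test, and the groups overlapped. Without irradiated replicate 2 it was -0.01.

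SLC40A1, which encodes ferroportin, the exporter of iron from cells (ENSG00000138449; chr2:189560579-189583758), was the least abundant of the 10 and had the largest difference. It stood at 1.56, 1.66 and 1.36 TPM in controls and 2.18, 2.09 and 2.32 TPM after irradiation. All 3 irradiated values were above all 3 control values. The mean was 1.53 ± 0.153 TPM in controls and 2.20 ± 0.116 TPM after irradiation, 1.44 times the control mean. The log2 difference of 0.34 ± 0.13 SE had a 95% interval of 0.04 to 0.64 and an adjusted p of 0.132 (limma). On the log2(TPM + 1) scale the change of such a weak transcript is understated; with a pseudocount of 0.1 the difference was 0.50. Of the alternatives, it was called only where eBayes was run without the mean-variance trend (adjusted p = 0.0470), where 4.92% of all tested genes were called higher, and a filter of 5 TPM removed it.

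IREB2 encodes IRP2, an iron regulatory protein that is broken down when iron is plentiful (ENSG00000136381; chr15:78437431-78501456). Its values were 21.85, 25.07 and 22.87 TPM in controls and 22.67, 15.53 and 23.49 TPM after irradiation. Irradiated replicate 2 was below all other libraries, and replicates 1 and 3 lay within the control range. The log2 difference was -0.19 ± 0.15 SE (95% interval -0.54 to 0.16, adjusted p = 0.455, limma), the widest interval of the 10, and -0.01 without irradiated replicate 2. ACO1, which encodes the other iron regulatory protein, had 59.8 ± 1.65 TPM in controls and 52.6 ± 1.48 TPM after irradiation without overlap, a log2 difference of -0.18 ± 0.05 SE that was not called (adjusted p = 0.0572, limma). It was called after median-ratio scaling (-0.21, adjusted p = 0.0319), after quantile normalization (-0.17, adjusted p = 0.0488) and with a filter of 5 TPM (adjusted p = 0.0489), and in none of the other 14 alternatives. NCOA4, the receptor that delivers ferritin to lysosomes (ENSG00000266412; chr10:46005088-46030714), had 66.03, 62.7 and 64.74 TPM in controls and 65.71, 58.63 and 66.25 TPM after irradiation. These values overlapped, with a log2 difference of -0.02 ± 0.06 SE (95% interval -0.16 to 0.12, adjusted p = 0.840, limma), which was 0.03 without irradiated replicate 2.

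Of the genes of ferroptosis, GPX4 encodes the selenoenzyme that reduces lipid peroxides in membranes (ENSG00000167468; chr19:1103926-1106791). It measured 542.51, 563.96 and 546.17 TPM in controls and 549.19, 585.96 and 543.88 TPM after irradiation. The groups overlapped, and the log2 difference was 0.02 ± 0.04 SE with a 95% interval of -0.07 to 0.12 (adjusted p = 0.769, limma). This is the narrowest interval of the set. The sign was not stable: the difference was -0.01 after median-ratio scaling, -0.01 without irradiated replicate 2, and -0.14 after the GC and length correction, where it was called (adjusted p = 0.0450).

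AIFM2 encodes FSP1, which regenerates reduced coenzyme Q at the membrane without GPX4 (ENSG00000042286; chr10:70098223-70132934). It had 61.12, 60.14 and 63.84 TPM in controls and 60.33, 68.81 and 65.96 TPM after irradiation. The groups overlapped, with a log2 difference of 0.07 ± 0.06 SE (95% interval -0.07 to 0.22, adjusted p = 0.477, limma), which was -0.02 after the GC and length correction. GPX4 was 8.25 to 9.38 times as abundant as AIFM2 over the 6 libraries.

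ACSL4 encodes the ligase that activates arachidonic acid for membrane phospholipids (ENSG00000068366; chrX:109624244-109733403). Its values were 55.11, 52.27 and 50.33 TPM in controls and 52.95, 42.99 and 52.09 TPM after irradiation. Only irradiated replicate 2 lay outside the control range. The log2 difference was -0.09 ± 0.09 SE (95% interval -0.30 to 0.11, adjusted p = 0.517, limma), and -0.00 without that library. The log2 ratio of ACSL4 to GPX4 was -3.39 ± 0.08 in controls and -3.51 ± 0.22 after irradiation (SD, n = 3 each), with p = 0.60 in the exact permutation test. Without irradiated replicate 2 the difference of -0.12 turned to 0.01.

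Compared per length, mean TPM over the 6 libraries ran from FTL (2878) through FTH1 (1533), GPX4 (555), TFRC (101), NCOA4 (64.0), AIFM2 (63.4), ACSL4 (51.0), SLC39A14 (33.8) and IREB2 (21.9) to SLC40A1 (1.86). NCOA4 and AIFM2 were the only neighbours in that order whose libraries overlapped within both groups.

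Irradiated replicate 2 weighed on several of these values, and its deviation moved with transcript length and, among the 10 genes, with GC content. Its deviation from the mean of replicates 1 and 3 on the log2(TPM + 1) scale was -0.54 for IREB2, whose longest annotated transcript has 6354 bases. The deviation was -0.33 for TFRC (5111 bases), -0.28 for ACSL4 (5333 bases), -0.27 for SLC39A14 (4641 bases), -0.17 for NCOA4 (3549 bases) and -0.07 for SLC40A1 (3442 bases). It was 0.06 for FTH1 (1229 bases), 0.08 for FTL (878 bases) and 0.10 for GPX4 (1184 bases), all short messages. AIFM2 (3247 bases) had 0.12, the highest of the 10, although it is not among these short messages. Its GC content was 56.1%, near the 56.3% of FTL. GC content ran from 50.1% (FTH1) to 62.5% (GPX4) in the genes with a deviation above 0. In the genes below 0 it ran from 37.4% (ACSL4) to 47.7% (SLC39A14). Length and GC content cannot be told apart in these 10 genes, and the deviation was not compared with GC content over all tested genes. The order by length was not exact, since TFRC deviated further than the longer ACSL4 and FTL, the shortest, lay below GPX4. Tested genes with a known length were put in 4 bins of about equal size, and the median deviation was 0.03 in the bin of the shortest (75 to 2020 bases) and -0.24 in that of the longest (5110 to 37852 bases). For each control library against the other controls these medians stayed between -0.02 and 0.03 in every bin. Among tested genes, 5.27% deviated further down than IREB2 and 17.6% further than TFRC.

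**Figure D3:**
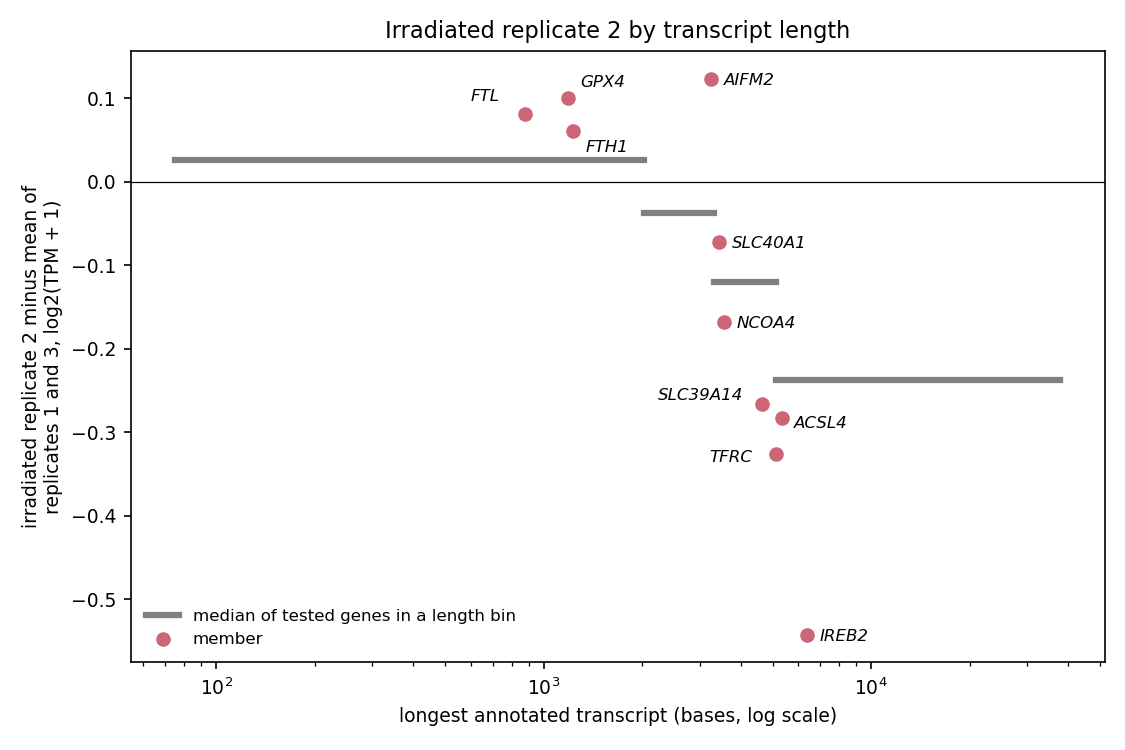
Deviation of irradiated replicate 2 from the mean of irradiated replicates 1 and 3 in log2(TPM + 1) (vertical axis) against the longest annotated transcript in bases (log axis). Points are the 10 genes and grey bars the medians of all tested genes in 4 bins of length, which run from 0.03 to -0.24.

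After cubic trends on GC content and length were removed from each library, 3 of the 10 genes were called, all lower, where 16.3% of the 14244 genes in that fit were called and 10.4% were called lower. These were FTH1 (-0.18, adjusted p = 0.0432), TFRC (-0.20, adjusted p = 0.0479) and GPX4 (-0.14, adjusted p = 0.0450; limma in each case). In that fit 9 of the 10 differences were below 0, against 6 without the correction, and FTL stood at -0.03. The median over all tested genes moved from 0.03 to -0.02. SLC40A1 stayed above 0 with 0.34 (adjusted p = 0.0876).

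**Figure D4:**
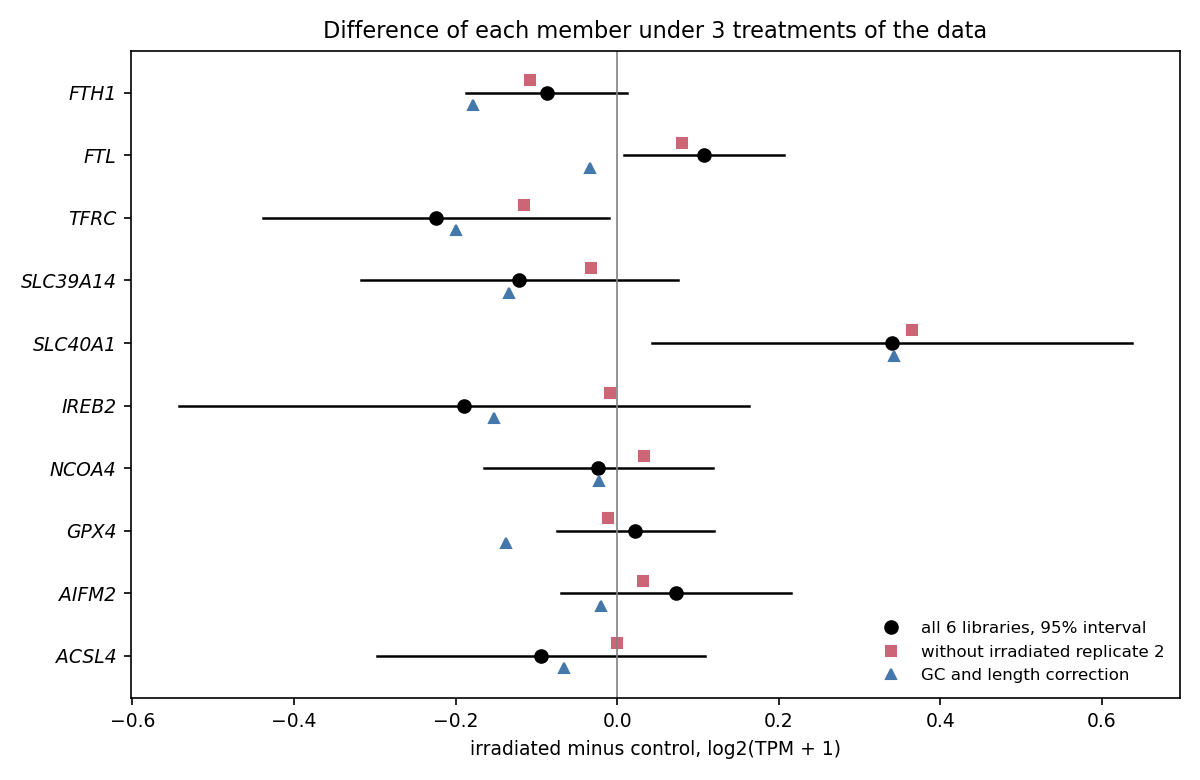
Irradiated minus control difference in log2(TPM + 1) (horizontal axis) of each gene, with black points and 95% intervals for all 6 libraries, squares without irradiated replicate 2 and triangles after GC and length correction. The squares for IREB2 (-0.01), ACSL4 (-0.00) and SLC39A14 (-0.03) lie near 0, and the triangles for FTH1, FTL and GPX4 lie below the black points.

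Other genes of iron handling and ferroptosis were taken from 7 lists with 121 genes, of which 106 were tested. Of these, 11 were higher and 10 lower (limma, adjusted p under 0.05), 19.8% against 10.6% of all tested genes, and their median log2 difference was -0.00 against 0.03. The 10.6% also covers weak and non-coding rows. With protein-coding rows only, 1794 of 12141 were called, and the counts in the lists were 13 higher and 10 lower. With a filter of 5 TPM, 1551 of 10512 were called, and the counts in the lists were 13 and 11. How many listed genes were left in those fits was not counted. The lists were chosen with earlier results of these data known, and no enrichment was tested. The counts in the lists were 10 and 9 without irradiated replicate 2. With control replicate 1, 2 or 3 left out they were 3 and 3, 2 and 3, and 7 and 5. With irradiated replicate 1 or 3 left out they were 5 and 5, and 3 and 3. They were 5 and 4 with no filter on low values and 4 and 5 without the eBayes trend. MELTF, PCBP1, PCBP2, BLVRB and ATF4 were called in each of 17 alternatives, and each of the other 16 called genes lost its call in at least 1.

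Among partners of ferritin and of iron transport, both iron chaperones that hand iron to ferritin fell. PCBP2 went from 410.25, 397.78 and 410.31 TPM to 302.02, 295.67 and 326.37 TPM (log2 change -0.40 ± 0.05 SE, adjusted p = 0.00614, limma). PCBP1 went from 284.18, 269.65 and 281.43 TPM to 220.75, 222.12 and 227.51 TPM (log2 change -0.32 ± 0.04 SE, adjusted p = 0.00662). These proteins also bind RNA. They were the 2 called of 9 tested genes of iron sensing and storage (median -0.00), where 10.6% of all tested genes were called. Of 7 tested transport genes, 1 was called: MELTF, a transferrin relative at the cell surface, rose from 11.54, 11.37 and 11.66 TPM to 18.09, 18.78 and 21.15 TPM (log2 change 0.70 ± 0.08 SE, adjusted p = 0.00615). All 7 differences were above 0, with a median of 0.16, where 8027 of all 14621 tested genes were above 0. A further 6 listed transport genes, the hormone HAMP among them, were too low to be tested. The importers and the exporter described above are not in this list. Of these, TFRC (-0.22) and SLC39A14 (-0.12) lay below 0, and SLC40A1 (0.34) lay above 0.

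Of 24 tested genes of heme and iron-sulfur clusters, 4 rose and none fell (median 0.03), where 6.53% of all tested genes rose and 4.07% fell. BLVRB, biliverdin reductase B, rose from 84.63, 87.65 and 97.24 TPM to 129.81, 129.98 and 132.11 TPM (log2 change 0.54 ± 0.06 SE, adjusted p = 0.00484, limma). PPOX (0.55, adjusted p = 0.0190) and UROD (0.22, adjusted p = 0.0126), enzymes of heme synthesis, and HMOX2, the constitutive heme oxygenase (0.25, adjusted p = 0.0456), also rose. HMOX1, the inducible heme oxygenase, had 19.6 ± 0.562 and 20.2 ± 0.495 TPM (adjusted p = 0.704). PPOX was not called with control replicate 1 or 2, or irradiated replicate 1 or 3, left out (adjusted p up to 0.0801). The same held for UROD with control replicate 1 or 2 or irradiated replicate 3 left out (up to 0.0629). HMOX2 passed with irradiated replicate 1 left out but with no other library left out (up to 0.138), nor with either scaling or the GC and length correction.

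Of 17 tested genes of cystine, glutathione and selenium, 2 rose and 1 fell (median -0.02), where 6.53% of all tested genes rose and 4.07% fell. GCLM, the modifier subunit of the enzyme that starts glutathione synthesis, fell from 26.44, 28.13 and 29.02 TPM to 22.2, 18.11 and 21.9 TPM (log2 change -0.41 ± 0.09 SE, adjusted p = 0.0321, limma). GSS, which completes glutathione (0.18, adjusted p = 0.0351), and SEPHS2, which makes the selenium donor for selenoproteins (0.29, adjusted p = 0.0300), rose. SLC7A11, the cystine importer, had 21.63, 22.07 and 20.77 TPM in controls and 23.06, 15.56 and 24.58 TPM after irradiation, the same low replicate 2 as in IREB2 (log2 difference -0.05, adjusted p = 0.860, and 0.14 without that library). GCLM and SEPHS2 passed with irradiated replicate 2 left out but with no other library left out (adjusted p reaching 0.113 and 0.111). GSS lost it without any library but control replicate 3 (up to 0.127), with median-ratio scaling and with the GC and length correction.

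Beside ACSL4, 17 genes of lipid substrates and lipid oxidation were tested, of which 2 rose and 2 fell (median -0.05). The shares over all tested genes were 6.53% and 4.07%. ALOXE3, an epidermal lipoxygenase, rose from 3.03, 2.69 and 3 TPM to 8.6, 5.53 and 7.78 TPM (log2 change 1.07 ± 0.16 SE, adjusted p = 0.0114, limma), while ALOX15 was listed at 0 in every library. The fatty acid desaturases SCD (-0.32, adjusted p = 0.0324) and FADS2 (-0.21, adjusted p = 0.0165) fell, and CYB5R1, an electron donor in lipid peroxidation, rose (0.26, adjusted p = 0.0277). With control replicate 2 left out ALOXE3 was not called (adjusted p = 0.0544). SCD and CYB5R1 passed with irradiated replicate 2 left out but with no other library left out (0.116 and 0.106 at most). FADS2 was not called in the absence of control replicate 1 or 2 or of irradiated replicate 3 (at most 0.0735).

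Beside AIFM2, 21 genes of coenzyme Q and other lipid antioxidants were tested, of which 2 rose and 2 fell (median -0.05). The shares over all tested genes were 6.53% and 4.07%. The coenzyme Q enzymes moved both ways, with COQ2 lower (-0.45, adjusted p = 0.0186, limma) and COQ6 higher (0.48, adjusted p = 0.0360). VKORC1L1, a vitamin K reductase, fell (-0.33, adjusted p = 0.0341), and SPR, which makes tetrahydrobiopterin, rose (0.23, adjusted p = 0.0348). COQ6, VKORC1L1 and SPR were not called when any single library was absent (adjusted p up to 0.123, 0.119 and 0.120), nor was SPR with median-ratio scaling or the GC and length correction. COQ2 was not called in the absence of any control library or of irradiated replicate 3 (up to 0.0672).

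The 11 regulators of iron or ferroptosis genes are transcription factors and KEAP1, the adaptor that marks NRF2 for degradation. Of these, 3 fell and none rose (median -0.07), where 4.07% of all tested genes fell and 6.53% rose. ATF4, the factor of the amino acid response, went from 401 ± 8.77 to 305 ± 2.23 TPM (n = 3 each; log2 change -0.39 ± 0.03 SE, adjusted p = 0.00309, limma). NFE2L2, which encodes NRF2, an activator of ferritin and glutathione genes, fell from 53.39, 54.36 and 50.9 TPM to 45.32, 42.85 and 44.4 TPM (log2 change -0.25 ± 0.05 SE, adjusted p = 0.0268). SP1 also fell (-0.47, adjusted p = 0.0472). NFE2L2 was not called in the absence of control replicate 1 or 2, or of irradiated replicate 1 or 3 (adjusted p at most 0.108). SP1 passed with irradiated replicate 2 left out but with no other library left out (0.152 at most).

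**Figure D5:**
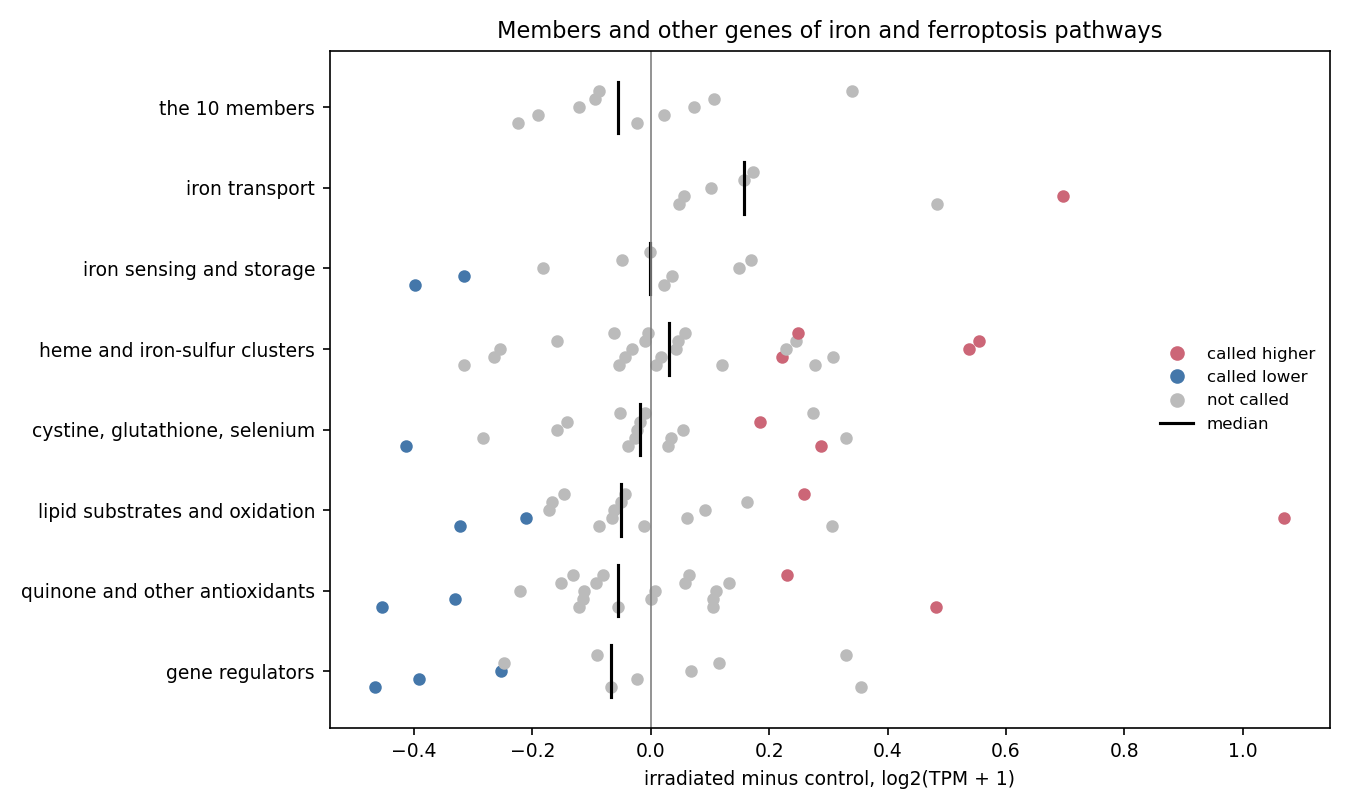
Irradiated minus control difference in log2(TPM + 1) (horizontal axis) of every tested gene in the set of 10 and in 7 lists of related genes, coloured by the call at an adjusted p under 0.05, with the median as a black line. None of the 10 genes is coloured, and 21 of the 106 other genes are.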

How the data were processed

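Per the labels' protocols, libraries were made with a TruSeq RNA kit from 1 μg of total RNA. The submitters' processing notes name hg38 as the build and RSEM, HISAT2 and StringTie as tools, with versions, roles and strand not given in the sources used here. The authors deposited 1 table of TPM per gene and library. Read depth is unknown, and the spread between libraries is the only measure of precision.

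Rows that reached 1 TPM in 3 or more libraries were tested on log2(TPM + 1) with limma 3.58.1 in R 4.3.3 (eBayes with a mean-variance trend, two-sided, Benjamini-Hochberg over 14621 rows, threshold 0.05); intervals cover 95%. Ratios were compared by exact permutation over 20 assignments. Gene positions (1-based), lengths, GC content and sequences came from GENCODE 29, on the same assembly; 97.4% of tested rows had length and GC content. Only the limma fit was tested on simulated data, with changes larger than most of those reported here. The element search, the ratios and the GC and length correction were not.

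The members and lists were chosen with earlier results of these data known. Named genes were the 10 members, up to 3 called genes with the largest changes in each list, and the 3 most abundant ferritin pseudogenes. UROD, FADS2, SPR, ACO1, SLC7A11, HMOX1, HAMP, ALOX15 and AXL were named after their values were seen. Alternatives were other pseudocounts, filters, scalings and eBayes settings, each library left out, the replicate block, and GC and length correction.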

Additional observations from a re-analysis of the deposited data

How the results depend on the processing

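The count of called members, 0 higher and 0 lower, became 1 higher without the eBayes trend (SLC40A1) and 3 lower after GC and length correction, where 10.4% of all tested genes were called lower and GPX4 turned to -0.14; it stayed at 0 in the other 15 alternatives. Over 169 recomputed member differences, 6 had the opposite sign. All calls numbered 497 with no filter, 993 without trend, 362 with the replicate block and 2321 (1477 lower) after GC and length correction, and 306 to 1390 with 1 library left out. Calls in the related lists, 11 higher and 10 lower, were 5 and 4 with no filter, 4 and 5 without trend, 3 and 3 with the replicate block, 10 and 17 after GC and length correction, and 2 to 10 and 3 to 9 with 1 library left out. The difference in ACSL4 to GPX4 ranged from -0.19 to 0.01 (0.0108 without irradiated replicate 2) when 1 library was left out. The cause of these shifts was not tested. The deviations of same-numbered libraries from their group means correlated by 0.03, -0.06 and -0.03. The labels do not say whether libraries with the same number were paired, and the replicate block is an alternative only. With unknown depth, SLC40A1 at 1.86 TPM is the least secure level.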
